A study of Mus musculus with 23 samples.

Results

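Chromatin accessibility of mouse 3T3-L1 preadipocytes that had received siRNA against Kdm5c was compared between differentiation day 0 and day -2, using 7 of the 23 libraries of the series. The 7 libraries were chosen by their labels alone: 3 from day 0, numbered 1, 2 and 4, and 4 from day -2, numbered 1 to 4. In both groups sub-confluent cells were reverse-transfected with 50 nM Kdm5c siRNA and Lipofectamine RNAiMAX, and they were collected 72 hours later on day 0 and 24 hours later on day -2. The series also holds 4 Kdm5c siRNA libraries from day -1, 48 hours after transfection, and scramble libraries (50 nM non-targeting siRNA, same reagent), of which the 4 from day 0 and the 4 from day -2 serve here as a second arm. All groups are cultures of 1 established line kept in preadipocyte medium. The labels do not say whether replicates were separate cultures, so every p-value measures only the spread between these libraries, which may be technical.

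3T3-L1 is a fibroblast-like line that turns into fat cells when confluent, growth-arrested cultures are given an adipogenic hormone mix, and day 0 is by convention the day on which that mix is added. By that convention the days before it are those in which dividing cells fill the dish and stop dividing. Kdm5c is an X-linked histone demethylase that removes methyl groups from lysine 4 of histone H3, a mark of active promoters and enhancers. In ATAC-seq a transposase inserts adapters where DNA is not covered by nucleosomes, so the number of fragments at a peak, a region of locally high coverage, reflects how open that region is.

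Each day had its own list of peaks, and the lists differed in size and in the width of their peaks. Day 0 had 37051 nuclear peaks and day -2 had 84016. A 1 to 1 match by 50% reciprocal overlap joined 18587 of them, 50.2% of the day 0 peaks and 22.1% of the day -2 peaks. These held 81.6% to 82.6% of the nuclear counts of the day 0 libraries and 56.2% to 62.7% of those of the day -2 libraries. Of the matched peaks, 8061 carried the same gene name from the authors on both days and are called promoter-class below, 10441 carried none and are called other peaks, and 85 were mixed. Peaks without a partner were narrower, with a median width of 181 bases on day 0 and 172 on day -2, against 560 and 619 for matched peaks. Levels are given as counts per kb of peak per 1000000 counts in matched nuclear peaks, with TMM scaling, and are called normalised counts per kb. Nuclear counts were 1088968, 1524867 and 2525925 in the day 0 libraries and 1952259, 3345583, 2857592 and 2003855 in the day -2 libraries. Sampling day, peak list and any batch of preparation or sequencing cannot be told apart in this design.

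The labelled cell type was checked by its markers. Of 13 preadipocyte or fibroblast markers, 7 had a promoter-class peak on both days (Pdgfrb, Thy1, Ebf1, Col1a1, Col1a2, Vim and Twist2), with a summed level of 505 to 568 on day 0 and 451 to 601 on day -2, and 0 of them were called. Pdgfra, Cd34, Dlk1, Zfp423, Ebf2 and Prrx1 had no such matched peak. None of the markers listed for immune cells (among them Ptprc, Cd68 and Cd3e), endothelium (Pecam1, Cdh5 and Kdr), epithelium (Epcam, Krt8 and Cdh1), muscle (Myod1, Myog and Des) or mature fat cells (Adipoq, Plin1, Fabp4 and Cidec) had one.

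Between day 0 and day -2 a small share of the matched regions of Kdm5c siRNA cells changed in accessibility, in nearly equal numbers up and down. Of 18128 peaks tested, 356 were higher and 361 lower on day 0 at an adjusted p under 0.05 (edgeR's quasi-likelihood test with Benjamini-Hochberg adjustment), which is 1.96% and 1.99% of those tested and 3.96% together. The higher peaks had a median log2 difference, day 0 over day -2, of 0.67, and the lower ones of -0.86. A difference of 2-fold or more was seen at 159 called peaks (0.877% of those tested), 48 of them higher and 111 lower. Without adjustment 17.9% of all tested peaks had a p under 0.05, and at 15.9% the libraries of one day did not overlap those of the other. DESeq2 called 503 peaks (2.77%), 261 higher and 242 lower.

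By class, the counts of calls leaned in different directions. Promoter-class peaks were more often higher (195 of 8025, 2.43%) than lower (63, 0.785%, together 3.21%), and other peaks more often lower (297 of 10019, 2.96%) than higher (156, 1.56%, together 4.52%). Median log2 differences over all tested peaks of each class were small, 0.03 and -0.04. The share of matched nuclear counts that fell in promoter-class peaks was 52.99% ± 0.868 on day 0 (SD, n = 3) and 52.4% ± 0.618 on day -2 (n = 4), a difference of 0.616 percentage points that the two-sided exact permutation test over 35 splits did not separate (p = 0.371, adjusted p = 0.371 over 4 such tests). With an 80% overlap the same difference was -0.384 (exact p = 0.657). Dividing by all nuclear counts of each day's own table moves the median peak up by 0.51 on the log2 scale and turns the split into 7698 higher and 63 lower, and dividing by matched totals without TMM gives 543 higher and 272 lower. All other differences given here use TMM and are relative to the bulk of matched peaks.

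**Figure D1:**
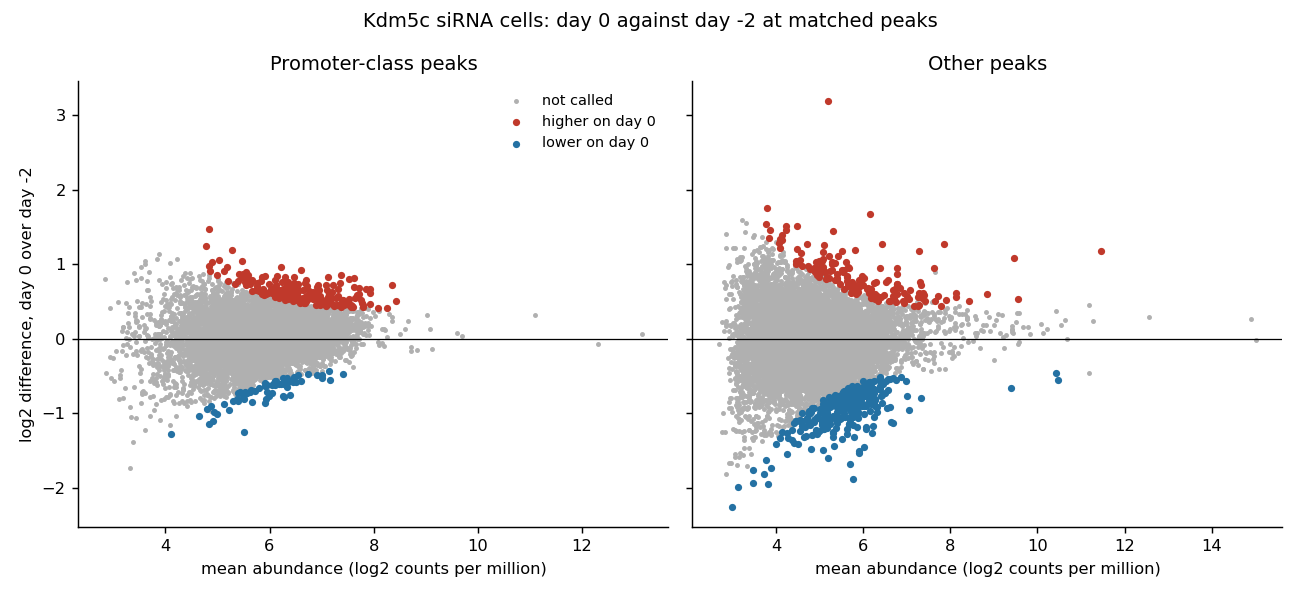
Log2 difference between day 0 and day -2 (vertical) against mean abundance (horizontal, log2 of counts per 1000000) for the 8025 promoter-class peaks and the 10019 other peaks tested in Kdm5c siRNA cells; each point is 1 peak, red if called higher on day 0, blue if called lower, grey if not called. Red points outnumber blue ones among promoter-class peaks (195 and 63), and blue points outnumber red ones among other peaks (297 and 156).

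The counts moved with the libraries included. Without day 0 replicate 1, 2 or 4 the calls were 215 higher and 231 lower, 182 and 163, and 161 and 186. Without day -2 replicate 4 they were 240 and 216. Without day -2 replicate 1, 2 or 3 they were 251 and 271, 357 and 427, and 397 and 306. In each of these 7 fits promoter-class calls were mainly higher (90 to 223 higher and 17 to 61 lower) and other calls mainly lower (145 to 365 lower and 70 to 172 higher).

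The leading promoter-class and other peaks were named by a rule that took only calls with non-overlapping days. Non-overlap at those peaks was thus set by the choice. It was also found at 342 of all 356 higher calls (96.1%) and 331 of all 361 lower calls (91.7%), so it adds little to a call. Among promoter-class peaks that were higher on day 0, a gene tied to growth arrest stood near the top of the list. Gas1, a membrane-anchored protein first found in fibroblasts that have stopped growing, has its peak at chr13:60176449-60178066 on GRCm38. The peak had 115, 137 and 118 normalised counts per kb in the 3 day 0 libraries, against 72.1, 68.2, 66.4 and 67.1 in the 4 day -2 libraries. All day 0 libraries lay above all day -2 libraries, with a log2 difference of 0.85 (SE 0.13, adjusted p = 1.46e-05). On the scale of the 14465 peaks matched on all 3 days, the Kdm5c siRNA means were 77.7, 131 and 139 on days -2, -1 and 0 (n = 4, 4 and 3). Gas7, another gene named for growth arrest, had a peak inside its span at chr11:67600673-67601398 that was also higher, with 51.4, 79.4 and 77.05 on day 0, against 26.7, 44.6, 35.2 and 31.6 on day -2. There the log2 difference was 1.01 (SE 0.23, adjusted p = 0.00477), and the call was lost without day 0 replicate 2 or 4, at an adjusted p of 0.0710 at most. Gas6, a secreted ligand of receptor kinases that is likewise named for growth arrest, was added after its values were seen. Its promoter-class peak had a log2 difference of -0.62 (SE 0.24, adjusted p = 0.132) that was not called, and 0.14 without the width term.

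RefSeq promoter windows (250 bases before to 50 after the annotated start, GRCm38.p6) of 5 called genes, each lying whole inside the peaks of both days, are printed as examples. Gas1, Trim21 and Zfp677 were higher on day 0, and Itga5 and Angptl2 lower. Capitals mark CCAAT boxes (CCAAT or its reverse complement) and GC boxes (GGGCGG or its reverse complement), and each sequence is written 5′ to 3′ along the gene. The Gas1 window lies at chr13:60177486-60177785 on the minus strand, that of Trim21 at chr7:102565433-102565732 on the minus strand, that of Zfp677 at chr17:21383498-21383797 on the plus strand, that of Itga5 at chr15:103366742-103367041 on the minus strand and that of Angptl2 at chr2:33215711-33216010 on the plus strand.
Gas1: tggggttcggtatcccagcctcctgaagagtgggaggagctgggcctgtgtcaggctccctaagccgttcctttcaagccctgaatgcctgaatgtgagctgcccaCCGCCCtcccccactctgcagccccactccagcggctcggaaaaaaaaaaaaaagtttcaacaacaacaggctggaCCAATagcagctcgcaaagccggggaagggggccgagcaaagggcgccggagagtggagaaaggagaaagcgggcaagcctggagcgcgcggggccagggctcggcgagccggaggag
Trim21: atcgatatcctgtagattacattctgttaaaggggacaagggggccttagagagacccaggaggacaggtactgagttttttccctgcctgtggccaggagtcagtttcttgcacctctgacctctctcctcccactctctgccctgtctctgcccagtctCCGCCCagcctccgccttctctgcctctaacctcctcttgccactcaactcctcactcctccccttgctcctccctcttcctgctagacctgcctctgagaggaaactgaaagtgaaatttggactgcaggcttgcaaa
Zfp677: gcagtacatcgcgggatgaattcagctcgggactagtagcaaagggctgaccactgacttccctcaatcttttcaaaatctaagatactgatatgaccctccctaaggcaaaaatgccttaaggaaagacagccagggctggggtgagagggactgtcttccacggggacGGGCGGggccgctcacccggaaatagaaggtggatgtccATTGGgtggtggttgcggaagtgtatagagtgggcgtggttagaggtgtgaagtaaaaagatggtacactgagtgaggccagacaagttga
Itga5: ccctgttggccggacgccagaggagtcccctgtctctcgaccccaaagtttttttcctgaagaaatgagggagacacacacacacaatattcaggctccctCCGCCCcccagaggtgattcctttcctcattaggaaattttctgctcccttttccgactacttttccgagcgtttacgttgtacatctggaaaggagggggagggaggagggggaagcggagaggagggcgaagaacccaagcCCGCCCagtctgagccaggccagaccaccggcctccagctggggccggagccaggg
Angptl2: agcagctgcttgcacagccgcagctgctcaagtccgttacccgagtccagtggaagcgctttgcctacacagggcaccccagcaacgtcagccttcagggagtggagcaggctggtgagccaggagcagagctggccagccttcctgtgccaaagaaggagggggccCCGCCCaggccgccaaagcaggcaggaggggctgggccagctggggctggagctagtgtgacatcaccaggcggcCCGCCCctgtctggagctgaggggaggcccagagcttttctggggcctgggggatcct

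All 5 windows hold at least 1 GC box, and those of Gas1 and Zfp677 also hold 1 CCAAT box each. Their GC content is 62.3%, 54.3%, 52.0%, 58.7% and 66.7% in the order printed. Over the 3523 promoter-class peaks (43.9% of those tested) whose RefSeq window lies whole in both days' peaks, the median GC content was 63.0% for the 106 called higher, 69.8% for the 24 called lower and 65.3% for all. A CCAAT box was found in 50.0% of the higher windows, 41.7% of the lower and 43.4% of all, and a GC box in 78.3%, 87.5% and 79.9%. The ETS motif CCGGAAG, searched on both strands, was in 15.1%, 4.17% and 21.7%. Its share of the lower windows is 1 of 24, and further motifs that were searched are not listed here. These shares are descriptions of the letters in the windows. Over all 32851 RefSeq promoter windows a CCAAT box was in 37.4%, a GC box in 35.7% and CCGGAAG in 8.86%.

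The promoter-class peaks of Mx2, Trim21 and Gbp6, all genes of antiviral or immune defence, were higher on day 0. Mx2, an interferon-induced GTPase that restricts viruses, had 79.4, 72.4 and 79.2 on day 0, against 49.99, 42.9, 47.7 and 44.7 on day -2. The days did not overlap there, as at 96.1% of all peaks called higher. Its log2 difference was 0.74 (SE 0.14, adjusted p = 7.96e-04). Trim21, a ubiquitin ligase and intracellular antibody receptor, had 87.5, 101 and 68.96 on day 0, against 35.995, 55.03, 54.2 and 38.4 on day -2, with a log2 difference of 0.86 (SE 0.21, adjusted p = 0.00800). The Trim21 call was lost without day 0 replicate 2, at an adjusted p of 0.120. Gbp6, a guanylate-binding protein induced by interferon and named here after its values were seen, had 67.5, 65.9 and 59.6 on day 0, against 23.5, 23.1, 19.6 and 26.5 on day -2, a log2 difference of 1.47 (SE 0.27, adjusted p = 4.31e-04). At Gbp6 the lowest day 0 library was above the highest day -2 library by more than the spread within either day. On the list of 24 interferon and RNA sensing genes, 13 were tested, Mx2 was the 1 call (7.69%, against 3.23% of all promoter-class genes), and the median log2 difference was 0.06. Irf1 and Irf9, transcription factors of that pathway, each had -0.61 without being called (adjusted p = 0.0998 and 0.207). Without the width term Irf1 had -0.81 and was lower at an adjusted p of 0.00886, while Irf9 had 0.03 (adjusted p = 0.959).

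The zinc finger genes Zfp317, Zfp120 and Zfp677 were also higher at promoter-class peaks. Zfp317 had 123, 169.7 and 160.1 normalised counts per kb on day 0, against 59.4, 77.8, 76.9 and 97.7 on day -2, with a log2 difference of 0.97 (SE 0.17, adjusted p = 1.46e-04). Zfp120 had 173, 225 and 185 on day 0, against 86.3, 101, 99.1 and 124 on day -2, with a log2 difference of 0.93 (SE 0.15, adjusted p = 3.55e-05). For Zfp677 the values were 118, 113 and 131 on day 0, against 69.3, 50.1, 78.97 and 75.8 on day -2, with a log2 difference of 0.83 (SE 0.15, adjusted p = 4.31e-04). The days did not overlap at any of these 3 peaks, which the naming rule required. Each of the 3 was called whichever library was left out. Peg3, an imprinted zinc finger gene expressed from the paternal copy, gained at an other peak within its span, chr7:6727436-6728946, with 179.5, 164 and 164 on day 0, against 81.3, 82.4, 93.7 and 92.03 on day -2 (log2 difference 0.95, SE 0.13, adjusted p = 9.17e-07).

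Hspa13, Hsph1 and Atf4, which serve protein folding and the response to stress, were also higher. Hspa13, a member of the Hsp70 chaperone family, had 193, 209 and 199.8 on day 0, against 139, 94.5, 129 and 88.4 on day -2, with a log2 difference of 0.84 (SE 0.14, adjusted p = 9.05e-05). Hsph1, which helps Hsp70 exchange its nucleotide, had 184, 180.4 and 196 on day 0, against 136, 129, 161 and 129 on day -2, a log2 difference of 0.42 (SE 0.13, adjusted p = 0.0467), and kept its call in 1 of 7 fits with 1 library left out, that without day -2 replicate 3 (adjusted p at most 0.189 in the others). Atf4, the transcription factor of the integrated stress response, had 120.2, 106 and 94.4 on day 0, against 66.2, 86.6, 65.6 and 78.9 on day -2, with a log2 difference of 0.50 (SE 0.14, adjusted p = 0.0330). It was not called by DESeq2 (adjusted p = 0.0674) and lost its call without day 0 replicate 1 or 2 or day -2 replicate 1, 3 or 4 (adjusted p at most 0.157). Neither day overlapped the other at these 3 peaks, which the naming rule required of Hspa13. Hsph1 and Atf4 are the smaller and less stable differences.

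Other leading gains were at genes of varied function. Fbxw17, an F-box protein of the kind that hands substrates to ubiquitin ligases, had 115, 100.04 and 98.1 on day 0, against 49.4, 72.003, 45.4 and 30.5 on day -2, with a log2 difference of 1.04 (SE 0.22, adjusted p = 0.00241). Cst3 encodes cystatin C, a secreted inhibitor of cysteine proteases, and had 161, 131 and 136 on day 0, against 61.5, 88.3, 66.6 and 98.7 on day -2, with a log2 difference of 0.84 (SE 0.17, adjusted p = 0.00132). The days did not overlap at either gene, which the naming rule required. Echdc1, an enzyme that destroys a by-product of fatty acid synthesis, had 109.6, 115 and 97.8 on day 0, against 66.2, 51.7, 56.6 and 68.3 on day -2, with a log2 difference of 0.83 (SE 0.18, adjusted p = 0.00305). Stx18, a membrane fusion protein of the endoplasmic reticulum, had 118, 107 and 106 on day 0, against 63.4, 65.8, 55.8 and 60.1 on day -2, with a log2 difference of 0.84 (SE 0.17, adjusted p = 0.00168), but its peak was 603 bases wide on day 0 and 884 on day -2, and without the width term the adjusted p was 0.100.

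Losses at promoter-class peaks were led by a peak that the authors named for Hsp90aa1, the stress-inducible form of the chaperone Hsp90. It lies at chr12:110703058-110703655, 6.66 kb from the RefSeq span of the gene, and had 28.4, 56.01 and 40.98 on day 0, against 109, 102, 98.8 and 94.9 on day -2. The log2 difference was -1.24 (SE 0.22, adjusted p = 2.81e-04), and the highest day 0 library lay well below the lowest day -2 library. The peak over the RefSeq start of the same gene, chosen after its values were seen, had 87.7, 95.3 and 85.1 on day 0, against 88.6, 81.1, 72.6 and 77.5 on day -2, a log2 difference of 0.16 (SE 0.15, adjusted p = 0.608) that was not called.

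Promoter-class peaks of Itga5, Lox, Inf2, Angptl2 and Vegfb were lower on day 0. Itga5, the alpha subunit of the fibronectin receptor, had 74.1, 90.6 and 85.9 on day 0, against 126, 139, 97.05 and 168 on day -2, with a log2 difference of -0.64 (SE 0.17, adjusted p = 0.0153). Lox, which cross-links collagen and elastin, had 40.01, 45.5 and 56.7 on day 0, against 90.1, 64.2, 75.1 and 71.1 on day -2, with a log2 difference of -0.62 (SE 0.17, adjusted p = 0.0285). Both calls depended on the width term: without it Itga5 had -0.42 (adjusted p = 0.0856) and Lox -0.10 (adjusted p = 0.756), with peaks that were 747 and 1214 bases wide on day 0 and 697 and 923 on day -2. They were also lost without day 0 replicate 1 or 4 or day -2 replicate 4 for Itga5 (adjusted p at most 0.111) and without day 0 replicate 1 or 2 or day -2 replicate 1 or 4 for Lox (at most 0.130). Inf2, a formin that builds and severs actin filaments, had 69.4, 61.7 and 57.8 on day 0, against 104, 107, 108 and 109 on day -2, with a log2 difference of -0.78 (SE 0.16, adjusted p = 0.00146). Its 4 day -2 libraries were within a narrow range, and the 3 day 0 libraries lay far below it. Angptl2, a secreted relative of the angiopoietins, had 96.4, 78.05 and 70.1 on day 0, against 116, 127, 149.7 and 143 on day -2, with a log2 difference of -0.75 (SE 0.16, adjusted p = 0.00217). That peak also lies inside the span of Ralgps1, and its call was lost without day 0 replicate 4, at an adjusted p of 0.0589. Vegfb, a growth factor of the VEGF family, had 50.3, 69.2 and 67.7 on day 0, against 118, 115, 106 and 91.3 on day -2, with a log2 difference of -0.76 (SE 0.18, adjusted p = 0.00577), and -0.46 (adjusted p = 0.0765) without the width term.

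The next losses at promoter-class peaks concerned genes of translation and signalling. Eefsec, the elongation factor that delivers selenocysteine, had 45.8, 48.5 and 56.9 on day 0, against 84.4, 81.5, 93.4 and 109 on day -2, with a log2 difference of -0.84 (SE 0.20, adjusted p = 0.00746). Zfp335os, an antisense gene within the span of Zfp335 from which ATAC-seq cannot separate it, had 58.1, 49.5 and 49.7 on day 0, against 101, 87.4, 90.5 and 74.3 on day -2, with a log2 difference of -0.77 (SE 0.16, adjusted p = 0.00242). At both peaks every day 0 library lay below every day -2 library, which the naming rule required. The Eefsec call was lost without day 0 replicate 2 (adjusted p = 0.0512). Rps6ka4, a stress and mitogen kinase, had 68.9, 61.1 and 59.4 on day 0, against 115, 139, 94.9 and 84.8 on day -2, with a log2 difference of -0.80 (SE 0.19, adjusted p = 0.00587). Rps6ka4 was not called without the width term (adjusted p = 0.0872) or without day 0 replicate 4 (adjusted p = 0.0645). Tnfaip2, a gene induced by tumour necrosis factor (log2 difference -0.74, SE 0.21, adjusted p = 0.0292) and the cap-binding protein gene Eif4e3 (-0.83, SE 0.25, adjusted p = 0.0430) were also lower. Their calls were lost without day 0 replicate 2 or 4 or day -2 replicate 1, 2 or 4 (adjusted p at most 0.174) and without day 0 replicate 2 or 4 or day -2 replicate 2 or 4 (at most 0.182). DESeq2 gave Eif4e3 an adjusted p of 0.0786.

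**Figure D2:**
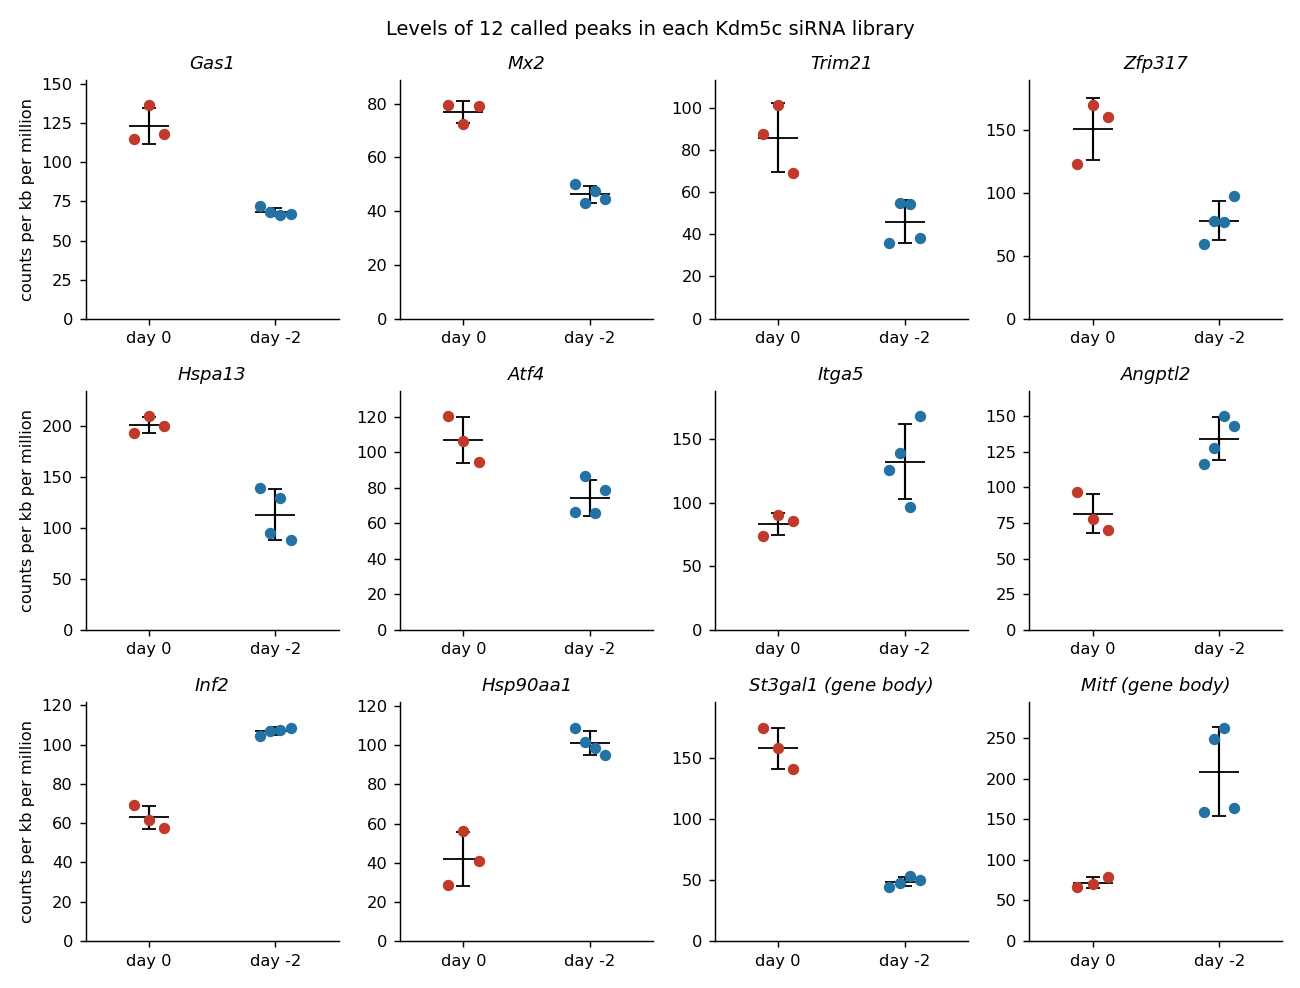
Normalised counts per kb (vertical, from 0) of 12 called peaks in each of the 3 day 0 libraries (red, left) and 4 day -2 libraries (blue, right) of Kdm5c siRNA cells; points are libraries, the short bar is the mean and the whiskers are 1 SD. The St3gal1 and Mitf peaks lie inside the gene span, and the others are promoter-class. The days do not overlap in any panel, which the naming rule required of all but Mx2, Atf4 and Itga5. Day 0 is higher for Gas1, Mx2, Trim21, Zfp317, Hspa13, Atf4 and St3gal1 and lower for Itga5, Angptl2, Inf2, Hsp90aa1 and Mitf.

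Among the peaks named by the fixed rule, the largest changes were at other peaks inside gene spans. At chr15:67110331-67111150, inside St3gal1, which adds sialic acid to surface glycans, the level was 175, 159 and 141 on day 0, against 44.6, 47.3, 53.6 and 49.6 on day -2. This is a log2 difference of 1.68 (SE 0.17, adjusted p = 5.48e-10), the day 0 mean being 3.25 times the day -2 mean. Over days -2, -1 and 0 the Kdm5c siRNA means at the St3gal1 peak were 55.4, 94.03 and 179 (n = 4, 4 and 3). Cdh26, a cadherin-like adhesion gene, had 102, 124 and 127 on day 0, against 39.9, 35.9, 65.3 and 55.1 on day -2 at chr2:178454686-178455816, with a log2 difference of 1.27 (SE 0.16, adjusted p = 4.37e-07). Rin2, a regulator of the endocytic GTPase Rab5, had 96.98, 75.2 and 95.5 on day 0, against 29.7, 30.7, 58.3 and 36.6 on day -2 at chr2:145881141-145881968, with a log2 difference of 1.17 (SE 0.22, adjusted p = 5.23e-04). All 3 peaks were called whichever library was left out and also without the width term.

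The other peaks with the largest losses under the same rule lay inside Lrrc4c, Fmn2, Mitf, Fto and Tspan9. Lrrc4c, a cell adhesion protein of neurons, had 34.1, 38.5 and 34.8 on day 0, against 115, 126, 145 and 144 on day -2, at chr2:97437870-97438334, with a log2 difference of -1.88 (SE 0.22, adjusted p = 2.69e-08). Fmn2, a formin that nucleates actin, had 11.8, 44.01 and 39.7 on day 0, against 112, 79.2, 153 and 95.4 on day -2 at chr1:174640671-174641148, with a log2 difference of -1.68 (SE 0.25, adjusted p = 1.46e-05), and day 0 replicate 1 was the lowest library. In both cases the highest day 0 library lay well below the lowest day -2 library. Mitf, a transcription factor of pigment cells and lysosome genes, had 66.3, 70.3 and 79.01 on day 0, against 159, 249, 263 and 164 on day -2 at chr6:97952796-97953205, with a log2 difference of -1.54 (SE 0.20, adjusted p = 7.19e-07). Fto, an RNA demethylase gene whose introns carry variants linked to body weight in humans, had 55.01, 60.9 and 60.2 on day 0, against 137, 169, 145 and 221 on day -2 at chr8:91545460-91546035, with a log2 difference of -1.50 (SE 0.20, adjusted p = 5.28e-07). Tspan9, a tetraspanin of the cell membrane, had 83.4, 47.1 and 73.4 on day 0, against 180.1, 189, 184 and 182 on day -2 at chr6:127991615-127992143, with a log2 difference of -1.44 (SE 0.19, adjusted p = 4.37e-07). At the peaks matched on all 3 days, day -1 lay between the others: the means on days -2, -1 and 0 were 150.2, 78.7 and 40.4 for Lrrc4c, 237, 144 and 81.1 for Mitf, 191, 143 and 66.2 for Fto and 209, 112 and 76.8 for Tspan9. The peak in Fmn2 had no day -1 partner.

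Across 18 gene lists covering adipogenesis, growth and stress, the promoter-class peaks moved little. Of 513 genes, 329 were tested and 10 were called, 7 higher and 3 lower. That is 3.04%, against 3.23% of all 7929 promoter-class genes (193 higher and 63 lower), so the share on the lists was close to the background. The 10 genes included Gas1, Mx2, Atf4, Hsph1, Kif23 and Incenp on the higher side and Hsp90aa1, Itga5 and Lox on the lower side.

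Adipogenic transcription factors, which switch on the fat cell programme, had 12 tested members, of which Atf4 was higher and 0 were lower (8.33% called, against 3.23% of all promoter-class genes). Their median was 0.11, against 0.03 for all promoter-class genes. Pparg, the nuclear receptor that drives fat cell formation, had 52.5, 40.7 and 36.9 on day 0, against 61.3, 74.997, 44.6 and 41.96 on day -2, a log2 difference of -0.40 (SE 0.24, adjusted p = 0.371), with overlapping days. Its partner Cebpa had 80.3, 65.7 and 73.1 on day 0, against 45.4, 67.3, 55.9 and 48.7 on day -2, a log2 difference of 0.40 (SE 0.16, adjusted p = 0.150). The early factors Cebpb and Cebpd had 0.16 (SE 0.15) and -0.02 (SE 0.14), at adjusted p of 0.622 and 0.951. Mature adipocyte and lipid storage genes had 12 tested members and 0 calls, a median of -0.13, 4 members above 0 and 8 below. Scd1, a fatty acid desaturase, had the smallest p of that list, with 67.6, 60.5 and 67.7 on day 0, against 78.1, 80.97, 76.1 and 84.1 on day -2 and a log2 difference of -0.29 (SE 0.15, adjusted p = 0.325). Preadipocyte and anti-adipogenic genes had 12 tested members, 0 calls and a median of 0.09. Of 18 other peaks at members of that list, 1 was lower (5.56%, against 2.96% of all other peaks). It lies at chr15:98780234-98781308, 2.03 kb from Wnt10b, a Wnt ligand that blocks fat cell formation. The level there was 61.003, 83.98 and 55.9 on day 0, against 134, 123, 124 and 125 on day -2 (log2 difference -0.92, SE 0.15, adjusted p = 7.72e-05).

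The cell cycle lists held 3 calls among promoter-class peaks, all higher. DNA replication genes had 24 tested members, 0 calls and a median of 0.05, and G1 cyclin, Myc and E2F genes 9, 0 and -0.03. Of 22 mitosis genes 2 were called (9.09%, against 3.23% of all promoter-class genes). Kif23 and Incenp, both of which work in the final separation of daughter cells, were higher at 0.82 (adjusted p = 0.0184) and 0.53 (adjusted p = 0.0261). The Kif23 peak was 473 bases wide on day 0 and 896 on day -2, and the Incenp peak 767 and 1156. Leaving out 1 library ended the Kif23 call without day 0 replicate 2 or day -2 replicate 1 (adjusted p at most 0.256) and the Incenp call without day 0 replicate 2 or 4 or day -2 replicate 3 or 4 (at most 0.143). Without the width term their log2 differences were 0.03 and 0.06 (adjusted p = 0.949 and 0.836). Among 21 growth arrest and cell cycle inhibitor genes, Gas1 was the 1 call (4.76%, against the same 3.23%), and the median was 0.09. Replication-dependent histone genes had 27 tested members, 0 calls and a median of 0.15, which was -0.05 without the width term. Beyond promoters, 1 of 10 other peaks of the DNA replication list was lower (10%, against 2.96% of all other peaks). It lies inside Pola2, a subunit of the primase complex, with 57.2, 67.3 and 57.5 on day 0, against 94.3, 130.2, 114 and 158 on day -2 (log2 difference -1.04, SE 0.20, adjusted p = 9.40e-04). A peak inside Ccnd2, a G1 cyclin, was lower as well (log2 difference -0.79, SE 0.21, adjusted p = 0.0157), 1 of 13 other peaks of its list (7.69%). That call was lost without the width term (adjusted p = 0.628) and without day 0 replicate 1 or 2 (at most 0.0874).

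The lists of cell contact, matrix and cytoskeleton held 2 calls among promoter-class peaks, both lower. Of 17 cytoskeleton and focal adhesion genes, Itga5 alone was called (5.88%, against 3.23% of all promoter-class genes). There 11 were below 0, and the median was -0.15, which was 0.05 without the width term. Of 15 collagen and matrix genes, Lox alone was called (6.67%), and the median was -0.05. The YAP, TEAD and contact list had 11 tested promoter-class members with 0 calls. Its 26 other peaks had a median of -0.36, against -0.04 for all other peaks, and 3 were lower (11.5%, against 2.96% of all other peaks), all of them calls that needed the width term. These lie inside Vgll4, an inhibitor of TEAD factors (95.5, 114 and 135 on day 0, against 241, 175, 198 and 202 on day -2, log2 difference -0.78), Axl, a receptor kinase (-0.68), and Amotl2, a junction protein that holds YAP out of the nucleus (-0.63), at adjusted p of 0.00326, 0.0139 and 0.0255. Without that term their adjusted p was 0.311, 0.377 and 0.190, and leaving out day 0 replicate 2 or 4 for Axl or day 0 replicate 1 or 4 or day -2 replicate 4 for Amotl2 also ended the call (at most 0.0992 and 0.119). Of 29 other peaks of the collagen and matrix list, 1 was higher, against 1.56% of all other peaks. It lies inside Col4a1, a basement membrane collagen, with 97.5, 106 and 82.9 on day 0, against 43.4, 65.9, 32.8 and 69.1 on day -2 (log2 difference 0.85, SE 0.21, adjusted p = 0.0114). Its call was lost without day 0 replicate 2 or day -2 replicate 3 (at most 0.110).

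The remaining lists held few calls. Of 15 p53 and stress genes, Hsph1 and Atf4 were higher and Hsp90aa1 lower, with a median of 0.15. That is 20%, against 3.23% of all promoter-class genes, but Hsph1 kept its call in 1 and Atf4 in 2 of 7 fits with 1 library left out. Of 47 cytosolic ribosomal protein genes 1 was called (2.13%), and their median was 0.08. The 35 nuclear genes of mitochondrial respiration, the 15 histone H3K4 demethylase and methyltransferase genes, the 13 AP-1 and immediate early genes and the 11 insulin, glucocorticoid and cAMP genes had 0 calls each and medians of 0.03, 0.00, 0.05 and 0.06. Kdm5c itself had 69.4, 55.7 and 57.4 on day 0, against 55.2, 75.9, 77.7 and 33.5 on day -2, a log2 difference of -0.04 (SE 0.24, adjusted p = 0.948). Since siRNA targets the transcript and not the gene, its peak cannot show whether the knockdown worked, and no RNA data were used here. Of 16 other peaks of the AP-1 and immediate early list, 1 was higher, against 1.56% of all other peaks. That peak, near the immediate early factor Egr3, was higher by 0.53 (SE 0.16, adjusted p = 0.0430). It was not called by DESeq2 (adjusted p = 0.0937) or without day 0 replicate 1 or 4 or day -2 replicate 1, 2 or 4 (at most 0.313). At Mdm2, the ubiquitin ligase of p53, 1 peak inside the gene was higher (0.72, adjusted p = 6.05e-04) and 1 peak 6.59 kb away was lower (-0.55, adjusted p = 0.0145). Both lie in a 500 kb window of chromosome 10 that held 151 times the counts of the median window, and the lower one turned to 0.41 (adjusted p = 0.0385) without the width term and was not called without day 0 replicate 2 or 4 or day -2 replicate 4 (at most 0.114). The p53 and stress list had 19 other peaks tested, with 1 higher and 1 lower call (1.56% and 2.96% of all other peaks). The promoter-class peak of Mdm2 had a log2 difference of -0.07 (adjusted p = 0.869) and was not called. Without the width term it had 0.62 (adjusted p = 0.00384). The peaks at Egr3, Mdm2, Wnt10b, Pola2, Ccnd2, Vgll4, Axl, Amotl2 and Col4a1 were chosen after their values were seen.

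**Figure D3:**
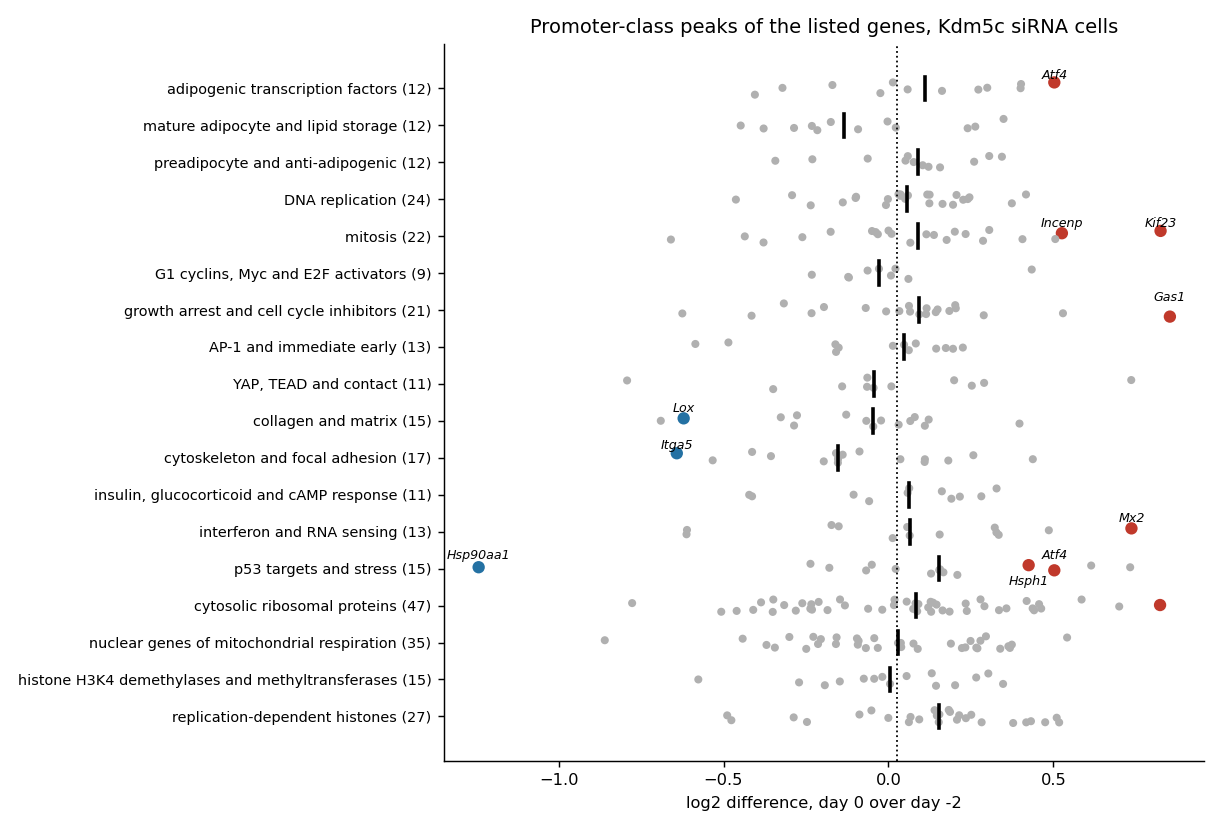
Log2 difference between day 0 and day -2 (horizontal) for the promoter-class peak of each tested gene of 18 lists, with the number of tested members in brackets; each point is 1 gene, red if called higher on day 0, blue if lower, grey if not called, the black bar is the list's median and the dotted line the median of all 7929 promoter-class genes. Most points are grey: 10 of 329 genes were called.

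Peak width differed between the days and moved with the calls. Matched peaks were wider on day -2 in 11764 cases and on day 0 in 6738. The median log2 width ratio, day 0 over day -2, was -0.29 for peaks called higher, 0.04 for peaks called lower and -0.12 for peaks not called, as a peak that is narrower at the same count has a higher count per kb. With counts per peak in place of counts per kb, 1264 peaks were higher and 1263 lower. Of the calls made with the width term, 189 of the 356 higher and 213 of the 361 lower were called in the same direction without it, and 19 and 31 turned in sign. In the 10150 tested peaks whose widths were nearly equal on both days, 168 were higher and 151 lower, and promoter-class calls were again mainly higher (99 and 17) and other calls mainly lower (68 and 134). The part of width in any single difference was not tested.

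**Figure D4:**
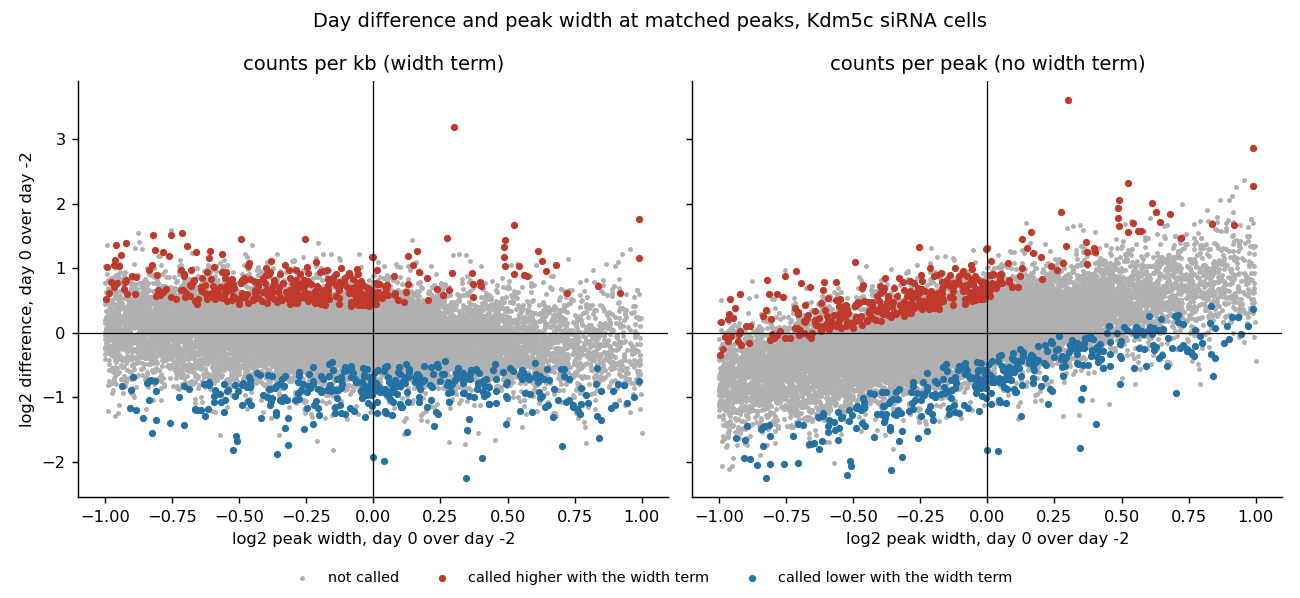
Log2 difference between day 0 and day -2 (vertical) against the log2 ratio of peak widths, day 0 over day -2 (horizontal), for the tested peaks, computed from counts per kb (left) and from counts per peak (right); each point is 1 peak, and in both panels red and blue mark peaks called higher and lower on day 0 with the width term. Without the width term the differences rise with the width ratio, and 19 red and 31 blue points cross 0.

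Scramble cells went through the same days, and most peaks called in Kdm5c siRNA cells had the same sign there. In scramble libraries (4 from day 0 and 4 from day -2), 927 peaks were higher (5.27%) and 1167 lower (6.63%) on day 0, 11.9% of the 17596 tested. Of the peaks called in Kdm5c siRNA cells and also tested in scramble cells, 346 of 356 higher ones and 343 of 357 lower ones had the same sign in scramble cells, and 199 and 227 were called there in that direction. Conversely, those shared calls are 21.5% of the 926 higher and 19.5% of the 1167 lower calls of scramble cells that were also tested in Kdm5c siRNA cells. Of the 16827 peaks tested in both arms and not called in Kdm5c siRNA cells, 66.4% had the same sign in scramble cells. Scramble cells called 8.94% of these uncalled peaks in that direction. The arms have no library in common, but they share each day's peak list, its widths and any batch of that day. Across the 17540 peaks tested in both arms the differences had a Pearson correlation of 0.50, given as a description across peaks, which are not independent replicates.

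The test of the difference between arms called none of the peaks named here. The log2 difference of the St3gal1 peak was 1.68 in Kdm5c siRNA cells and 1.81 in scramble cells. The interaction, which is the Kdm5c siRNA difference minus the scramble difference, was -0.14 there, smaller than its SE of 0.24. In Kdm5c siRNA and scramble cells the values were -1.88 and -1.77 for Lrrc4c, -1.54 and -1.60 for Mitf, -1.50 and -1.42 for Fto, -1.44 and -1.48 for Tspan9, and 1.27 and 1.14 for Cdh26. They were further apart for Rin2, at 1.17 and 0.63 (interaction 0.54, SE 0.31, adjusted p = 0.744), and for Fmn2, at -1.68 and -2.11 (0.43, SE 0.38, adjusted p = 0.846). Among promoter-class peaks they were -1.24 and -1.50 for Hsp90aa1 and 1.47 and 1.30 for Gbp6. Gas1 had 0.85 in Kdm5c siRNA cells and 0.49 in scramble cells (adjusted p = 0.00230 in the second), with an interaction of 0.36 (SE 0.18, adjusted p = 0.685). The losses at Eefsec, Eif4e3 and Vegfb had scramble differences of -0.15, 0.09 and 0.20, and their interactions were -0.69, -0.92 and -0.96 with adjusted p of 0.626, 0.552 and 0.401.

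No peak differed between the arms in its day difference at the threshold used. Over 18379 peaks and 15 libraries, edgeR's quasi-likelihood test of the interaction called 0 peaks (0%), with 1314 (7.15%) at an unadjusted p under 0.05, and DESeq2 also called 0, with 1128 (6.14%) at an unadjusted p under 0.05. The smallest adjusted p was 0.0652, shared by 2 other peaks chosen after their values were seen. At chr5:126537897-126538741, with no gene within 10 kb, Kdm5c siRNA cells had 82.98, 85.7 and 72.7 on day 0, against 82.6, 57.3, 92.98 and 85.6 on day -2, while scramble cells averaged 40.8 ± 8.68 on day 0 and 96.4 ± 10.6 on day -2 (SD, n = 4 each), an interaction of 1.241 (SE 0.26). At chr3:126827922-126828194, inside the calcium and calmodulin kinase gene Camk2d, Kdm5c siRNA cells had 87.2, 103 and 95.04 on day 0, against 71.5, 73.2, 95.4 and 66.1 on day -2, while scramble cells averaged 34.6 ± 18.2 on day 0 and 103 ± 21.2 on day -2 (SD, n = 4 each), an interaction of 1.85 (SE 0.39). At both peaks the Kdm5c siRNA libraries of the 2 days overlapped, while the scramble mean was lower on day 0. The count of interaction calls was 7 without day -2 Kdm5c siRNA replicate 3 and 1 without day 0 scramble replicate 2, and 0 without any other single library.

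**Figure D5:**
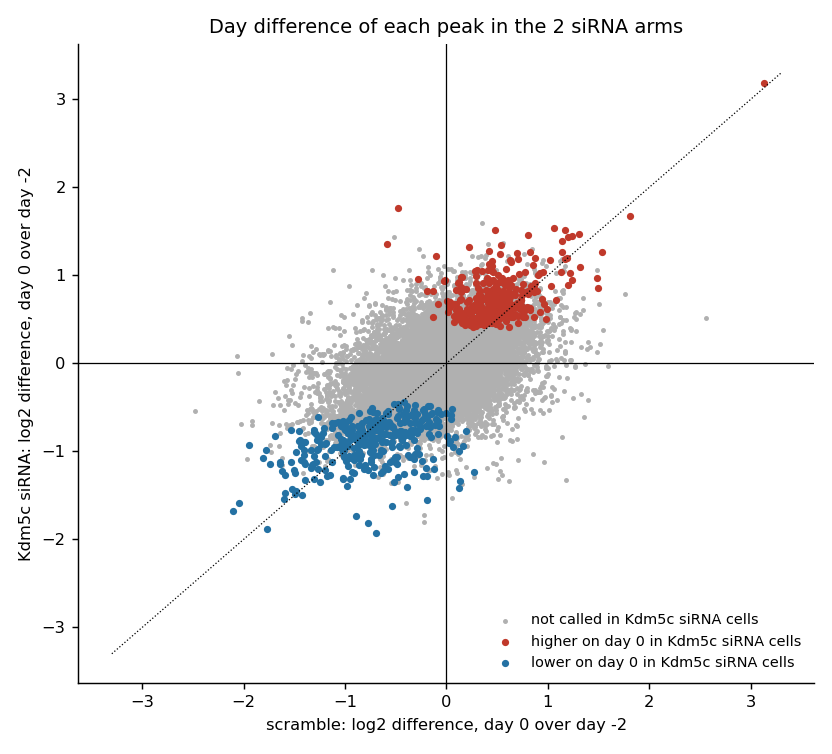
Log2 difference between day 0 and day -2 in Kdm5c siRNA cells (vertical) against the same difference in scramble cells (horizontal) for the 17540 peaks tested in both; each point is 1 peak, red or blue if called higher or lower on day 0 in Kdm5c siRNA cells, and the dotted line marks equal differences. Nearly all coloured points lie in the quadrants where both arms have the same sign (346 of 356 red and 343 of 357 blue), against 66.4% of grey points.

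Mitochondrial reads took a larger share of the libraries on day 0. Peaks on the mitochondrial genome held 86.7%, 86.8% and 78.8% of all counts in peaks in the day 0 libraries, against 56.4%, 60.9%, 67.7% and 70.02% in the day -2 libraries. The means were 84.1% ± 4.58 (SD, n = 3) on day 0 and 63.8% ± 6.26 (n = 4) on day -2, and the days did not overlap. The two-sided exact permutation test gave p = 0.0286, the smallest that 35 splits allow, and 0.0571 after adjustment over 4 tests. Scramble cells had 88.8% ± 1.77 on day 0 and 73.5% ± 2.85 on day -2 (n = 4 each). The day difference of the arms differed by 4.99 percentage points (two-sided exact permutation p = 0.398 over 2450 splits, with libraries exchanged between arms within each day). On day -1 the 4 Kdm5c siRNA libraries had 87.6% to 92.6%, so the share did not follow the order of the days. In ATAC-seq this share depends on how nuclei are prepared as well as on the cells, and the 2 cannot be told apart here.

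A nuclear peak whose annotation carries a mitochondrial gene name was higher together with that share. This peak lies at chr1:24611595-24616143, over the pseudogenes Gm10222 and Gm10925, and RefSeq lists mt-Atp6 among the synonyms of the second. It had 1115, 999 and 603 on day 0, against 280.4, 395, 389 and 537 on day -2, with a log2 difference of 1.18 (SE 0.17, adjusted p = 7.80e-06). A peak inside Myo3a, at chr2:22588662-22590179, had 152, 203 and 95.9 on day 0, against 54.2, 35.5, 75.7 and 99.1 on day -2, with a log2 difference of 1.18 (SE 0.18, adjusted p = 2.57e-05), although its ranges overlapped, and DESeq2 gave it an adjusted p of 0.115. Day 0 replicate 4, which had the lowest mitochondrial share of the 3 day 0 libraries, also had the lowest level of the 3 at both peaks. Both peaks were chosen after their values were seen, and whether mitochondrial reads account for them was not tested.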

How the data were processed

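ATAC-seq, which maps open chromatin with a transposase, was measured in 23 libraries of 3T3-L1 cells, and 1 table per day gives peaks and counts. The deposited values used here are raw counts per peak, whole numbers that the authors did not normalise as far as the tables show. Tables that the authors deposited as signal, the same counts divided by 1 constant per library, supplied only the gene names of peaks. Per the submitters' processing notes the tools were DESeq2 1.24.0, HTSeq 0.9.1, MACS2 2.1.1, Bowtie2 2.2.9 and cutadapt 2.3, with build GRCm38 (mm10). Not given in the sources used here are the role of each tool, the treatment of duplicates and of the transposase offset, any pooling of libraries before peaks were called and the base (0 or 1) of the start positions. Coordinates are those of the day 0 table.

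Peaks of both days were matched 1 to 1 by 50% reciprocal overlap (bedtools 2.31.1). Counts of matched nuclear peaks were tested with edgeR 4.0.16 in R 4.3.3 by the quasi-likelihood F test, with TMM factors from width-adjusted counts, log peak width in the offset, filterByExpr and Benjamini-Hochberg adjustment. SEs were derived from the F statistic. A call is an adjusted p under 0.05. The interaction was fitted over 15 libraries. DESeq2 1.42.0 was an alternative tool. Exact tests used Python 3.11.15 and scipy 1.17.1, and figures matplotlib 3.10.9. Total counts per library were 8166766 to 11905831 on day 0 and 4474964 to 8852048 on day -2, and the median tested peak had 54.9 counts on average per library. On simulated data of the same design (17941 peaks, Kdm5c siRNA day 0 against day -2), 67.0% of peaks changed by 1 on the log2 scale and 94.8% of those changed by 2 were called, and 7 of 164 calls were false. The simulation gave peaks of like abundance the same spread between libraries and held no batch difference between days. Its rates therefore need not hold for the real data.

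Peaks were named from the calls with at least median abundance, non-overlapping days and widths within 1.5 times: the 10 largest differences per direction among promoter-class peaks and the 5 largest among other peaks, passing over symbols that are only model names. From each list up to 2 called members per direction were named, or the 2 with the smallest p, as well as Kdm5c, Pparg, Cebpa, Cebpb and Cebpd. Results of some genes that these rules or lists pick are not reported here. Libraries, gene lists and rules were chosen with earlier results of these data known. Gene spans and promoter windows come from RefSeq (GRCm38.p6), which does not separate exons from introns here. Alternatives were other scalings, no filter, 80% overlap, no width term, similar widths only, DESeq2, all 15 libraries, a replicate block and leaving out each library.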

Additional observations from a re-analysis of the deposited data

Results flagged for a closer look

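In 6 of 87 groups of 4 libraries (6.90%), 1 library lay far from the other 3, measured by its gap to the nearest library as a fraction of the group's range, and chance flags about 1 in 20 groups. The share of matched nuclear counts in promoter-class peaks was 51.4% in Kdm5c siRNA day -2 replicate 1, against 52.6% to 52.7% in the other 3 (gap fraction 0.927). In scramble day 0 replicate 4 the same share was 53.1%, against 52.2% to 52.3% (0.926).

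The other 4 groups were single promoter-class or nearby peaks in the Kdm5c siRNA libraries of day -2. At Gins2, a subunit of the replicative helicase, replicate 4 had a level of 157 normalised counts per kb, against 194 to 199 (0.881). At Fosl1, an AP-1 subunit, replicate 2 had 117, against 76.6 to 80.6 (0.899). At Kdm1a, another histone H3K4 demethylase, replicate 4 had 29.0, against 54.4 to 58.6 (0.857). At the peak near Wnt10b replicate 1 had 134, against 123 to 125 (0.834).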

How the results depend on the processing

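Which libraries enter and how peak width is handled limit these results, and day cannot be told apart from batch. RLE factors (368 higher and 356 lower), no low-count filter (346 and 349) and a fit over all 15 libraries (437 and 412, with 712 of the 717 calls shared) kept both counts within 1.5 times. DESeq2 shared 491 of the 717 calls and called 34 promoter-class peaks lower. Of 53 called peaks picked by the naming rules or after their values were seen, 33 kept the call in all 7 fits with 1 library left out, and 6 lost it in DESeq2. Without the width term 15 lost it, and 1 more, the peak outside the Mdm2 span, was called in the opposite direction. The cause of the changes below was not tested.

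With totals of matched peaks, 543 peaks were higher, 308 promoter-class peaks higher and 36 lower, and Kdm5c (0.00839) and Cebpd (0.0280) turned positive. With all nuclear totals the counts were 7698 higher and 63 lower, 4462 and 1 for promoter-class peaks, 3193 and 61 for other peaks, and 200 list genes. Log2 differences that turned positive there were 0.22 for Scd1, 0.14 for Plin3, 0.28 for Gins2, 0.27 for Cdk4, 0.0366 for Fosl1, 0.10 for Akt1, 0.0941 for Insr, 0.0118 for Hist1h2ag, 0.47 for Kdm5c, 0.12 for Pparg and 0.49 for Cebpd. With 80% overlap there were 151 higher and 134 lower peaks, 91 and 21 promoter-class, 59 and 113 other, 5 list genes, and a difference in promoter share of -0.384. Without the width term there were 1264 and 1263, 562 and 271 promoter-class, 692 and 985 other, and 38 list genes. Signs turned to 0.26 for Plin3, -0.27 for Klf2, -0.20 for Ndufv1, -0.26 for Hist2h4, 0.34 for Kdm5c, 0.16 for Cebpd, 0.41 for the peak outside the Mdm2 span and -0.34 for Camk2d. With only peaks of nearly equal width there were 168 and 151, 99 and 17 promoter-class, and 68 and 134 other.

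With 1 library left out, the ranges were 161 to 397 peaks higher and 163 to 427 lower, 90 to 223 and 17 to 61 for promoter-class peaks, 70 to 172 and 145 to 365 for other peaks, 5 to 11 list genes and 0 to 7 interaction calls. The difference in promoter share was 0.307 to 1.11 percentage points. That in mitochondrial share was 17.8 to 23.0, with exact p-values of 0.0667 or 0.100, the smallest these splits allow. The difference of Kdm5c ranged over -0.22 to 0.10, of Cebpd over -0.10 to 0.0490 and of the chromosome 5 peak with the smallest interaction p over -0.13 to 0.11.

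Whether replicate numbers pair the samples is not known. Deviations of same-numbered libraries correlated at 0.03, -0.01 and -0.01, and not every library correlated best with its own number. So few libraries cannot settle it, and the main fits treat the samples as unpaired. A replicate block gave 432 higher and 344 lower (571 of 714 calls shared), 6 interaction calls, and 0.17 for Kdm5c.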

Other observations

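Zinc finger genes whose symbol is Zfp followed only by a number, looked at as a family after the values were seen, had 236 tested promoter-class peaks. Zfp335os, called lower at a log2 difference of -0.77, falls outside this definition, although its peak cannot be separated from Zfp335. Of these 14 were higher on day 0 and 0 were lower in edgeR's quasi-likelihood test, which is 5.93%, against 2.43% higher among all 7929 promoter-class genes. The 14 were Zfp9, Zfp78, Zfp120, Zfp157, Zfp317, Zfp369, Zfp414, Zfp444, Zfp493, Zfp677, Zfp788, Zfp865, Zfp932 and Zfp945. The family's median log2 difference was 0.11, against 0.03 for all genes, and 0.12 in scramble cells. Of the 14 calls, 8 were kept without the width term. Among heat shock and DnaJ genes (43 tested), Hspb8, a small heat shock protein, and Hsp90b1, the Hsp90 of the endoplasmic reticulum, were higher beside Hspa13 and Hsph1, and Hsp90aa1 was lower. These 5 calls are 11.6% of the family, against 3.23% of all promoter-class genes. The median log2 difference of the 43 genes was 0.02, against 0.03 for all genes, and 22 of the 43 lay above 0. Of their 4 higher calls, 3 were kept without the width term. Of 134 solute carriers of the Slc families, Slc39a6 was higher and 3 were lower, among them Slc38a10 and Slc39a7. That is 2.99%, close to the same background. Slc39a6 and Slc39a7 both carry zinc.

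By chromosome, chromosome 6 had 64 lower peaks of 1450 tested (4.41%, against 1.99% of all peaks) and 35 higher (2.41%, against 1.96%), with a median log2 difference of -0.08 in Kdm5c siRNA cells and -0.05 in scramble cells. Chromosome 19 had 25 lower (3.67%) and 7 higher (1.03%) of 682. Chromosome 10 had 31 higher (3.79%) and 10 lower (1.22%) of 817, and chromosome 13 had 21 higher (3.29%) and 4 lower (0.627%) of 638. The X chromosome, which carries Kdm5c, had 8 higher (1.81%, near the 1.96% of all peaks) and 1 lower (0.227%) of 441, with a median of 0.11 in Kdm5c siRNA cells and 0.06 in scramble cells.

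The share of peaks inside RefSeq gene spans was 84.3% for peaks called higher (300 of 356), 69.8% for peaks called lower (252 of 361) and 79.9% for peaks not called. The largest difference of all, chosen after the values were seen, was at a peak on an unplaced scaffold with 57.4, 39.5 and 54.7 normalised counts per kb on day 0 and 6.56, 4.12, 5.08 and 6.92 on day -2 (log2 difference 3.19, SE 0.27, adjusted p = 2.05e-12). It rests on 9, 9, 11 and 10 counts in the day -2 libraries, and scramble cells had 3.13. A peak at chr9:3023465-3026023, with no gene within 10 kb, had 168, 158 and 139 on day 0 and 81.2, 49.3, 59.1 and 69.6 on day -2 (log2 difference 1.27, SE 0.14, adjusted p = 5.33e-09).

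Peaks present on 1 day without a partner were not tested. On day 0 they were 18464 (49.8%), of which 11.0% carried a gene name, with a median of 11.7 counts per library. On day -2 they were 65429 (77.9%), of which 6.33% carried a gene name, with a median of 10.8 counts.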
